A study of Mus musculus with 6 samples.

Results

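Genes of the NRF2 oxidative stress response and the metallothioneins were followed, 10 genes with 20 probe sets (groups of short probes for 1 transcript), out of 18193 named genes and 45037 probe sets in the whole series. The genes are Nqo1, Hmox1, Gclc, Gclm, Srxn1, Txnrd1, Slc7a11 and Gsr, which are targets of the transcription factor NRF2, and the metallothioneins Mt1 and Mt2. Members were every probe set annotated to one of these symbols alone, and all 20 passed the filter on low signal.

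NRF2 (gene Nfe2l2) is held in the cytoplasm by KEAP1, which directs its destruction. Oxidants and electrophiles block KEAP1, and NRF2 then pairs with a small MAF protein on antioxidant response elements (AREs) and switches on genes that make and recycle glutathione and thioredoxin, while BACH1 competes for the same elements. Metallothioneins are small cysteine-rich proteins that bind zinc, copper and cadmium, and the zinc-sensing factor MTF1 drives them from metal response elements (MREs). In fibroblasts both systems protect against oxidants and metals.

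The RNA was that of immortalized MEFs (mouse embryonic fibroblasts, cultured connective tissue cells), grown in serum-containing medium and selected with puromycin. Every cell lacked PCAF (PCAF-/-), one of a pair of related histone acetyltransferases, and the question was which genes require PCAF or its relative GCN5 (gene Kat2a). The labels put 3 arrays in PCAF-/-;GCN5+/- and 3 in PCAF-/-;GCN5-/-. The design describes a retrovirus carrying Cre recombinase, which deletes the conditional GCN5 allele, or the empty vector. The labels do not say which virus an array's cells received, and the design gives both infections the same genotype, so GCN5-/- was read as Cre and GCN5+/- as vector, and the virus and the genotype cannot be told apart. Line A gave 2 duplicate RNAs per genotype (replicates A1 and A2), and line B, immortalized independently of it, gave 1 (replicate B). Only 2 lines therefore stand behind each p-value, and much of the spread used is that between duplicate RNAs of line A.

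Array medians lay between 7.41 and 7.46 on the log2 scale. Kat2a was lower in GCN5-/- arrays at 2 of its 3 probe sets, with a log2 difference of -2.44 ± 0.37 (SE) at 1422972_s_at (limma adjusted p = 0.00864) and -0.74 ± 0.13 at 1422971_at (limma adjusted p = 0.0157), while 1426783_at gave 0.18 ± 0.16 (limma adjusted p = 0.575). Where these probe sets lie relative to the deleted part was not analysed here. All 12 fibroblast markers read, such as collagens and vimentin, were above the filter. Of markers of other cells, 5 of 8 leukocyte, 3 of 6 epithelial, 1 of 6 endothelial and 2 of 5 muscle genes were above it. Summed linear signal per array over the fibroblast markers ran from 165902 to 181191 in GCN5+/- and from 161024 to 164672 in GCN5-/- arrays, without overlap. Of the 12, 6 were called lower in GCN5-/- arrays (limma adjusted p under 0.05), against 4.77% of all genes. Over 14 alternative fits that call held in 13 for Col1a1, 8 for Pdgfrb, 6 for Dcn, 5 for Pdgfra and 2 for Col3a1. Lum lay at the threshold, with a limma adjusted p that rounds to 0.05. The corresponding sums over leukocyte markers were 1685 to 1862 and 1737 to 2213. The part of either in the results below was not tested.

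Promoter windows of Srxn1, Mt1 and Mt2 are shown because they hold matches to the elements named above in different numbers. Srxn1 was also called higher and Mt1 lower in GCN5-/- arrays, while Mt2, beside Mt1, was not called. Each window is RefSeq sequence of GRCm38.p6 from 250 bases before to 50 after an annotated start, 5′ to 3′ on the gene's strand, and capitals mark every match to an ARE, MRE or AP-1 motif. The positions are chr2:152105274-152105573 for Srxn1, chr8:94178839-94179138 for Mt1 and chr8:94172368-94172667 for Mt2, all on the plus strand.
Srxn1: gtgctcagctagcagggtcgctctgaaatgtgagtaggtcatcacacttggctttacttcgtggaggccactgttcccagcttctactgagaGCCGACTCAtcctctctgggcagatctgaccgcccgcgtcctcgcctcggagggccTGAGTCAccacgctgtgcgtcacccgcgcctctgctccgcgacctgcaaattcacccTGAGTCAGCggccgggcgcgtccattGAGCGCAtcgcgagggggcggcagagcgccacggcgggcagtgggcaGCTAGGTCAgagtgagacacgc
Mt1: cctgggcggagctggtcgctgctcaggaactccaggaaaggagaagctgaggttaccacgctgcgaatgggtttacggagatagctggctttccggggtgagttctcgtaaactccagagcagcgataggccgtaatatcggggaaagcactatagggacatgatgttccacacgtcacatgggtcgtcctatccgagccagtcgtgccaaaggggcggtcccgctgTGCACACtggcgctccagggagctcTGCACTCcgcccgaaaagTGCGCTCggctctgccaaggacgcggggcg
Mt2: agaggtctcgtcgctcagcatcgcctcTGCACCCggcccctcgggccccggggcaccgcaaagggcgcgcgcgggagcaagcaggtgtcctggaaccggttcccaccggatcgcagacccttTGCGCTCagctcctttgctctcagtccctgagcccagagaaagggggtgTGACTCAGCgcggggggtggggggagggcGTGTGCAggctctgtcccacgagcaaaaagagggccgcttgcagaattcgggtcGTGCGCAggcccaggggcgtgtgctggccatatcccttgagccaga

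Both strands were searched for the ARE cores TGACNNNGC and TGAGNNNGC, the MRE cores TGCACNC and TGCGCNC and the AP-1 motif TGANTCA, where N is any base. The Srxn1 window held 3 ARE matches, 2 AP-1 matches and 1 MRE match, and the ARE match at -45 to -37 overlaps an AP-1 match. The Mt1 window held 3 MRE matches, at -23 to -17, 3 to 9 and 21 to 27, and no ARE match. The last of these lie after the annotated start, and sequence past the window's end was not searched. The Mt2 window held 4 MRE matches and 1 ARE match at -79 to -71, which also overlaps an AP-1 match. Within these windows the counts do not sort the members by role. The Gclm window held 3 MRE matches and 1 ARE match, and the Slc7a11 window and 1 of 3 Txnrd1 windows held 1 ARE match each. The Nqo1 window held none of these motifs. Elements outside the windows would be missed, so the counts do not describe whole promoters. Of 32851 windows of 300 bases, 12.4% held TGACNNNGC, 17.6% TGAGNNNGC, 12.6% TGCACNC, 15.4% TGCGCNC and 7.81% TGANTCA. At least 3 ARE matches were found in 0.630% of windows, at least 3 MRE matches in 1.97% and at least 4 in 0.517%. A match is a run of letters and no evidence of binding. The table had an entry for 7 of the 10 genes; Hmox1, Gclc and Gsr are named only. Mt4, Mt3, Mt2 and Mt1 are neighbours in that order in the RefSeq gene table.

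**Figure D1:**
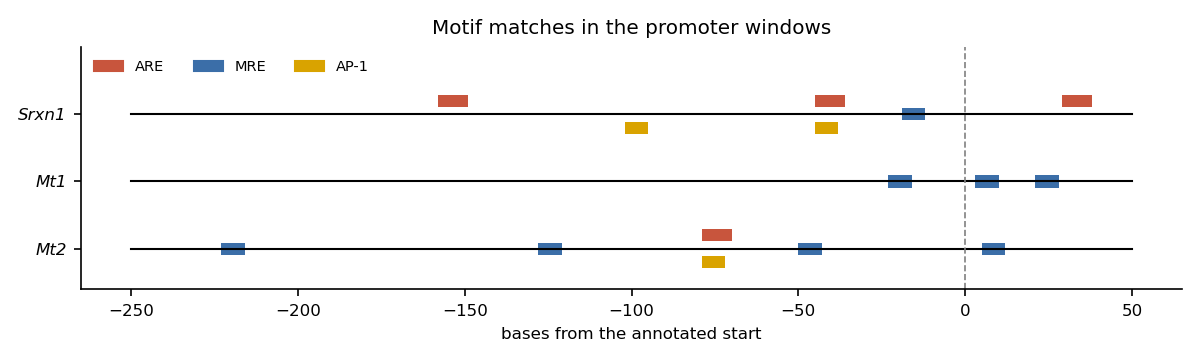
Motif matches in the RefSeq promoter windows of Srxn1, Mt1 and Mt2, plotted by distance in bases from the annotated start; each row is a window and the colours are ARE, MRE and AP-1 matches. Mt2 has 4 MRE matches, Mt1 has 3 and Srxn1 has 3 ARE matches.

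In GCN5-/- arrays, sulfiredoxin (Srxn1) and glutathione reductase (Gsr) were higher, by about 0.41 to 0.53 on the log2 scale, and Mt1 was lower by 0.39. The other 7 genes were not called. Called means an adjusted p under 0.05 in a limma fit of genotype with cell line as a covariate, adjusted over all 27022 probe sets tested. Of the 20 probe sets, 5 were higher, 1 was lower and 14 were not called, against 8.51% of all tested probe sets called in either direction (4.20% higher and 4.31% lower). The median genotype effect was 0.23 over the 20 and -0.01 over all tested probe sets, and 17 of the 20 were positive. Since the genes were chosen with earlier results of these data known and several probe sets share a gene, these counts are a description. None of these 6 calls held when the line A duplicates were averaged, when line was left out or when it was a random block (0 of 20 called each time, with 12, 3 and 5 at an unadjusted p under 0.05). Leaving out GCN5+/- A1 or GCN5-/- A2 also left 0 calls (8 and 9 at an unadjusted p under 0.05), and leaving out GCN5+/- A2 or GCN5-/- A1 left 1. Leaving out either line B array gave 6, with Nqo1 in place of Srxn1 at 1425351_at. In those fits the line term takes up the remaining line B array, so line A alone sets the genotype effect. They give the same effect and do not check the calls in line B. In these bulk samples, fewer cells of a type and less RNA per cell cannot be told apart.

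**Figure D2:**
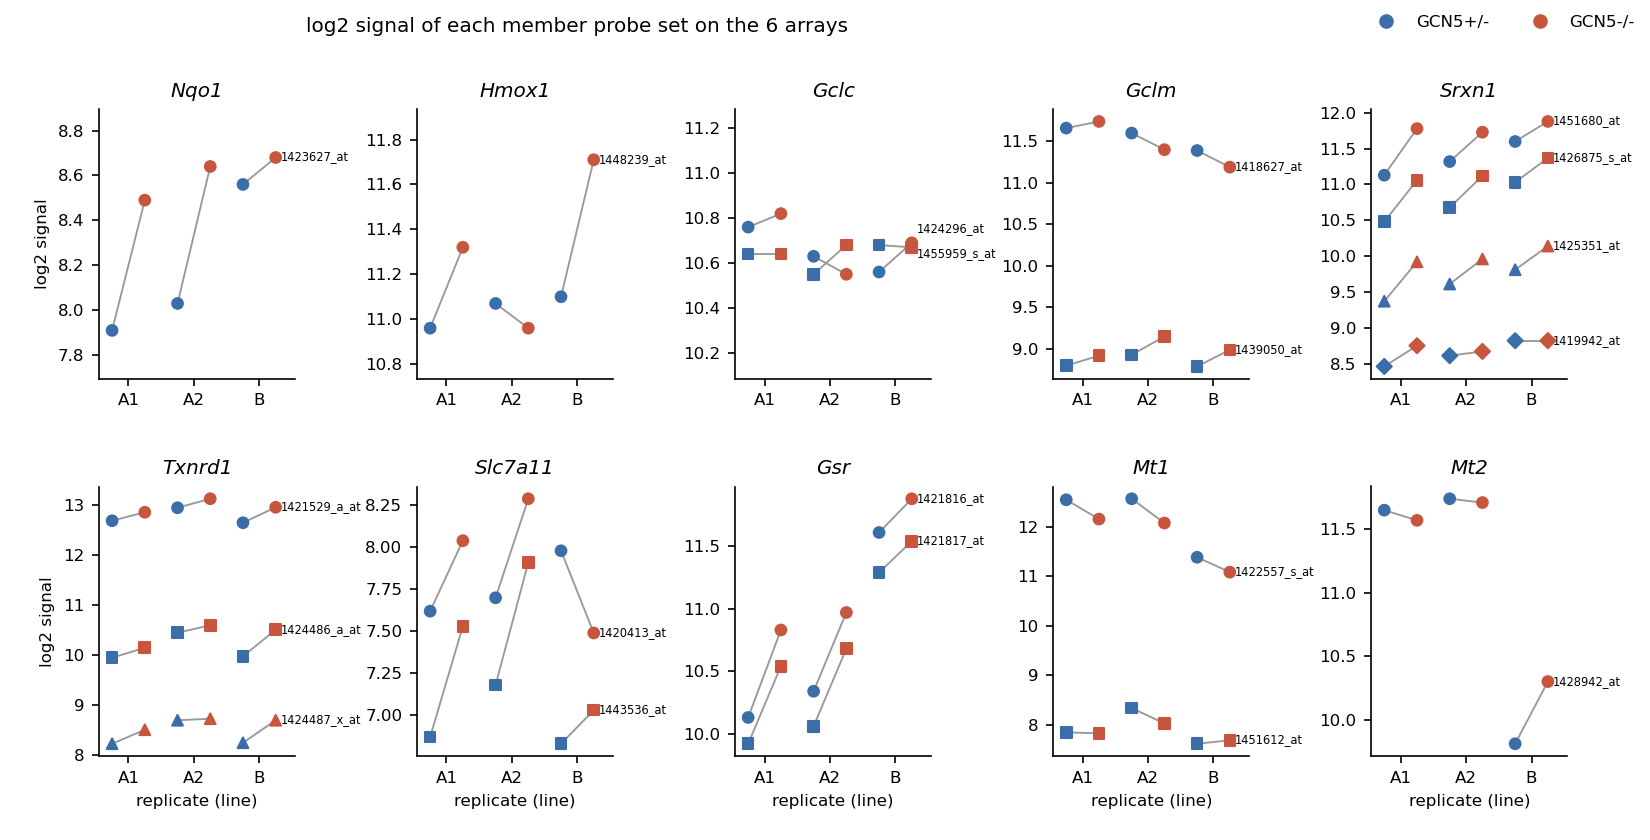
log2 signal (y axis, a range of its own in each panel) of every member probe set on each array, by replicate (x axis); grey lines join the GCN5+/- (blue) and GCN5-/- (red) arrays of a pair. Srxn1 rises within every pair at 3 probe sets, and Gsr, Mt1 and Mt2 sit at different levels in line B and line A.

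**Figure D3:**
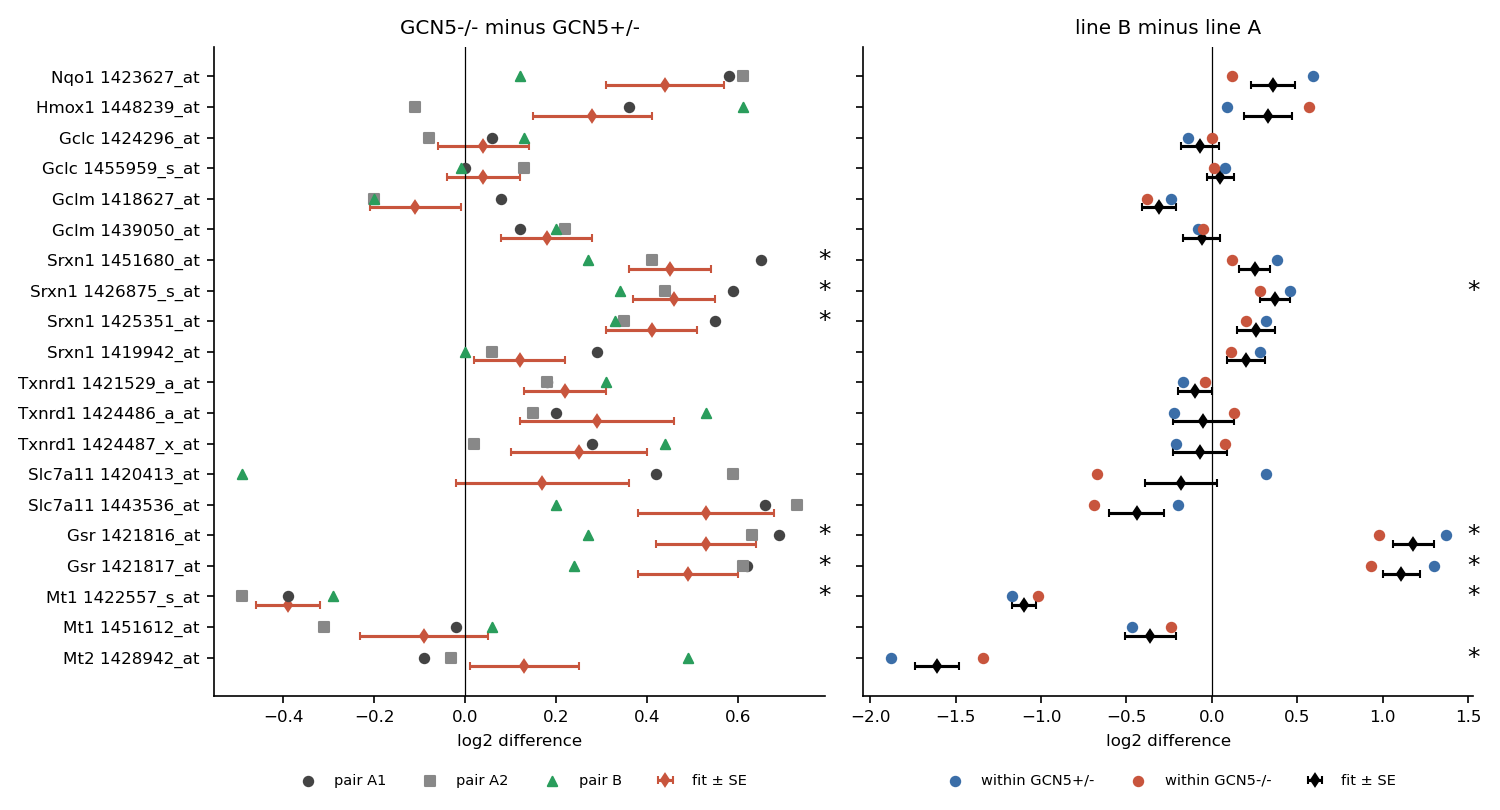
log2 differences of each member probe set: left, GCN5-/- minus GCN5+/- in pairs A1, A2 and B with the fitted effect ± SE; right, line B minus line A within each genotype with the fitted effect ± SE. Asterisks mark an adjusted p under 0.05: 6 probe sets for genotype and 5 for line.

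Srxn1 encodes sulfiredoxin, which repairs over-oxidized peroxiredoxins, and is among the genes most directly under NRF2. Values below are log2 signals in the order A1, A2, B. At 1451680_at it read 11.13, 11.32 and 11.60 on the GCN5+/- arrays and 11.78, 11.73 and 11.88 on the GCN5-/- arrays. Every GCN5-/- array was above every GCN5+/- array, and the same was true at 1426875_s_at and 1425351_at; these 3 were the only ones of the 20 without overlap, against 17.0% of all tested probe sets. The means were 11.35 ± 0.24 (SD, n = 3) and 11.80 ± 0.07. The fitted effect was 0.45 ± 0.09 (SE; limma adjusted p = 0.0213), a 1.36-fold difference, and the pairs gave 0.65, 0.41 and 0.27. Probe set 1426875_s_at read 10.48, 10.68 and 11.03 against 11.06, 11.12 and 11.37, an effect of 0.46 ± 0.09 (limma adjusted p = 0.0206). At 1425351_at the effect was 0.41 ± 0.10 (limma adjusted p = 0.0427), a call lost in 10 of 14 alternatives. The fourth probe set, 1419942_at was not called: its effect was 0.12 ± 0.10 (limma adjusted p = 0.542), with pair differences of 0.29, 0.06 and 0.00. Sulfiredoxin was thus called at 3 of 4 probe sets.

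Gsr encodes glutathione reductase, which uses NADPH to return oxidized glutathione to its reduced form. At 1421816_at it read 10.13, 10.34 and 11.61 on the GCN5+/- arrays and 10.83, 10.97 and 11.88 on the GCN5-/- arrays. The genotypes overlapped because line B was high in both, but each GCN5-/- array lay above its own pair, by 0.69, 0.63 and 0.27. The effect was 0.53 ± 0.11 (SE; limma adjusted p = 0.0250), or 1.45-fold, from means of 10.69 ± 0.80 (SD, n = 3) and 11.22 ± 0.57. The second probe set, 1421817_at, gave 0.49 ± 0.11 (limma adjusted p = 0.0291) and pair differences of 0.62, 0.61 and 0.24.

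The remaining genes of glutathione supply did not pass the test. Gclc and Gclm encode the catalytic and modifier subunits of glutamate-cysteine ligase, the rate-limiting enzyme of glutathione synthesis. Gclc at 1424296_at read 10.76, 10.63 and 10.56 on the GCN5+/- arrays and 10.82, 10.55 and 10.69 on the GCN5-/- arrays, and the genotypes overlapped. Its effect was 0.04 ± 0.10 (SE; 95% interval -0.19 to 0.27; limma adjusted p = 0.872), and 1455959_s_at gave 0.04 ± 0.08 (-0.14 to 0.22; limma adjusted p = 0.816). Gclm at 1418627_at read 11.66, 11.60 and 11.39 against 11.74, 11.40 and 11.19, an effect of -0.11 ± 0.10 (limma adjusted p = 0.567). Its other probe set, 1439050_at, had the opposite sign, at 0.18 ± 0.10 (limma adjusted p = 0.337), and neither passed. A rise of Gclc as large as that of Gsr thus lies outside both Gclc intervals.

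Slc7a11 encodes xCT, the light chain of a cystine importer that brings in the cysteine for glutathione. At 1443536_at it read 6.87, 7.18 and 6.83 on the GCN5+/- arrays and 7.53, 7.91 and 7.03 on the GCN5-/- arrays, so the level was higher in all 3 pairs but the genotypes overlapped. The effect was 0.53 ± 0.15 (SE; limma adjusted p = 0.0751), and with the replicate names as a block it passed (limma adjusted p = 0.0388). At 1420413_at it read 7.62, 7.70 and 7.98 against 8.04, 8.29 and 7.49. Here the line A pairs differed by 0.42 and 0.59 and the line B pair by -0.49, and the effect was 0.17 ± 0.19 (limma adjusted p = 0.653). The test of that difference between lines, the genotype by line interaction, gave -0.99 ± 0.24, which did not pass (limma unadjusted p = 0.00406, adjusted p = 0.302). Probe set 1443536_at lay close to the filter on low signal, a mean log2 of 6.80.

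Thioredoxin reductase 1 (Txnrd1) keeps cytosolic thioredoxin reduced. At its brightest probe set, 1421529_a_at, it read 12.69, 12.95 and 12.65 on the GCN5+/- arrays and 12.86, 13.13 and 12.96 on the GCN5-/- arrays. The effect was 0.22 ± 0.09 (SE; limma adjusted p = 0.181). Probe sets 1424486_a_at and 1424487_x_at gave 0.29 ± 0.17 (limma adjusted p = 0.336) and 0.25 ± 0.15 (limma adjusted p = 0.353). All 3 probe sets were higher in each pair, none passed the test, and the genotypes overlapped at each.

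Nqo1 encodes a quinone reductase and Hmox1 encodes haem oxygenase 1, which breaks down haem; both are standard readouts of NRF2. Nqo1 (1423627_at) read 7.91, 8.03 and 8.56 on the GCN5+/- arrays and 8.49, 8.64 and 8.68 on the GCN5-/- arrays. The line A pairs differed by 0.58 and 0.61 and the line B pair by 0.12. The effect was 0.44 ± 0.13 (SE; 95% interval 0.15 to 0.72), which did not pass (limma adjusted p = 0.0716); without GCN5+/- B or GCN5-/- B, when line A alone sets it, it was 0.60 and passed (limma adjusted p = 0.0349 and 0.0345). Hmox1 (1448239_at) read 10.96, 11.07 and 11.10 against 11.32, 10.96 and 11.71, with pair differences of 0.36, -0.11 and 0.61. Its effect of 0.28 ± 0.13 did not pass (limma adjusted p = 0.231).

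Mt1, a metallothionein, was the one member called lower. At 1422557_s_at it read 12.54, 12.56 and 11.38 on the GCN5+/- arrays and 12.15, 12.07 and 11.08 on the GCN5-/- arrays. It was lower in every pair, with differences of -0.39, -0.49 and -0.29, and the genotypes overlapped across lines because line B was low in both. The effect was -0.39 ± 0.07 (SE; limma adjusted p = 0.0120), a 1.31-fold fall. The suffix of this probe set marks probes that can match more than 1 transcript. The second Mt1 probe set, 1451612_at, whose GCN5+/- duplicates read 7.85 and 8.34, gave -0.09 ± 0.14 (limma adjusted p = 0.767). Mt2 (1428942_at), its neighbour gene, read 11.65, 11.74 and 9.81 against 11.57, 11.71 and 10.30. Its pairs differed by -0.09, -0.03 and 0.49, and the effect of 0.13 ± 0.12 was not called (limma adjusted p = 0.588). The genotype effect of Mt1 minus that of Mt2 was -0.52, with pair values of -0.31, -0.47 and -0.78; this contrast was chosen with its values known and is given as a description.

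Between the lines, the metallothioneins were lower and Gsr was higher in line B, and for these genes the line differences were larger in value than the genotype effects. Of the 20 probe sets, 3 were higher and 2 lower in line B, against 23.1% of all tested probe sets called (11.6% higher and 11.5% lower), and 7 of the 20 had no overlap between lines, against 36.7% of all. The share called, 5 of 20, is thus near the background. Mt2 had a log2 difference of -1.61 ± 0.13 (SE; limma adjusted p = 9.14e-05), a 3.05-fold lower level in line B, and the difference was -1.88 within GCN5+/- and -1.34 within GCN5-/- arrays. Mt1 at 1422557_s_at differed by -1.10 ± 0.07 (limma adjusted p = 3.01e-05), 2.14-fold lower. Mt1 at 1451612_at differed by -0.36 ± 0.15 without passing (limma adjusted p = 0.140), though no line B array reached a line A array. Gsr was 2.26-fold higher in line B at 1421816_at, by 1.18 ± 0.12 (limma adjusted p = 0.000308), and by 1.11 ± 0.11 at 1421817_at (limma adjusted p = 0.000345). Mt1 (1422557_s_at), Mt2 and both Gsr probe sets stayed called in all 12 alternatives tried for line. Srxn1 at 1426875_s_at was higher in line B by 0.37 ± 0.09 (limma adjusted p = 0.0242), called in 7 of the 12 and lost without GCN5+/- A1, GCN5+/- B or GCN5-/- A1 (limma adjusted p = 0.0595, 0.213 and 0.0506), while its 3 other probe sets were not called. The line difference of Gclm at 1418627_at was -0.31 (limma adjusted p = 0.0668), that of Nqo1 0.36 ± 0.13 (limma adjusted p = 0.0941) and that of Slc7a11 at 1443536_at -0.44 (limma adjusted p = 0.0912). Leaving out 1 array brought a call at Gclm 1418627_at (without GCN5-/- A2, limma adjusted p = 0.0450), Nqo1 (without GCN5-/- B, 0.0468) and Slc7a11 1420413_at (without GCN5+/- B, 0.0467). Among markers of other cells, 1 of 3 tested epithelial genes passed for line, Krt19 at 2.86. Of 5 tested leukocyte genes, Cd68 (0.91) and Csf1r (-1.35) passed and 3 did not. The 1 endothelial and 2 muscle genes tested did not pass. Over all genes, 26.7% passed for line. Of the 12 fibroblast markers, 9 differed between lines, 4 higher and 5 lower in line B. Among the higher were Lum (2.99) and Thy1 (2.95), and the lower were Pdgfra (-1.91), Pdgfrb (-0.85), Dcn (-0.59), Col1a1 (-0.23) and Col3a1 (-0.22). For these 5 lower genes the line call held in all 12 alternatives for Pdgfra, 11 for Pdgfrb, 10 for Col1a1, 9 for Col3a1 and 4 for Dcn. The part of any marker in these results was not tested. Line B is 1 RNA per genotype, so what is particular to that line and to those RNAs cannot be told apart.

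The genotype by line interaction asks whether GCN5 loss changed a gene differently in the 2 lines. It was called at none of the 20 probe sets by limma (2 had an unadjusted p under 0.05), against 0.0481% of all tested. These were Slc7a11 at 1420413_at, above, and Mt2, with 0.55 ± 0.16 (SE; limma unadjusted p = 0.0107, adjusted p = 0.411). All residual spread in that fit comes from the line A duplicates.

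**Figure D4:**
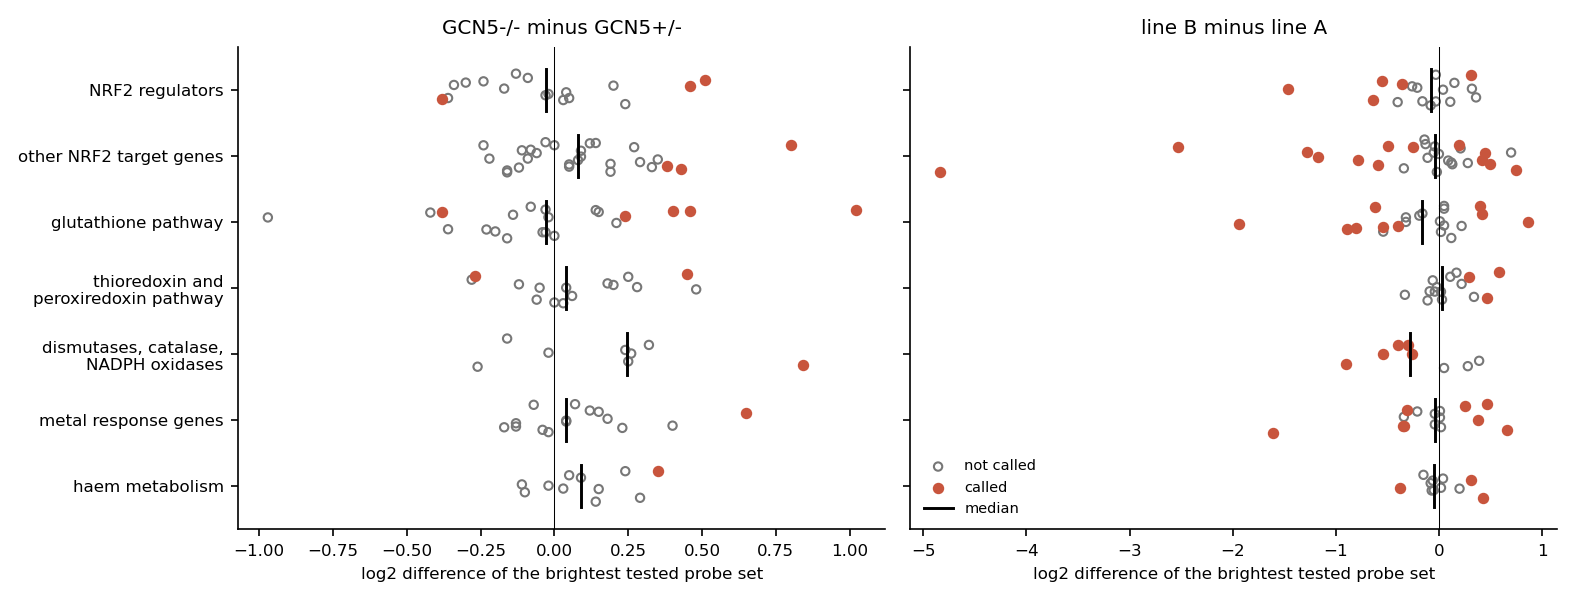
Genotype and line effects (log2, 1 probe set per gene) of the genes in the surrounding lists; filled points passed an adjusted p under 0.05. Ticks are list medians; the axes differ in range, with Ggct at 1.02 the highest for genotype and Mgst1 at -4.84 the lowest for line.

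The surrounding pathway was read from lists at 1 probe set per gene, the brightest; 9.86% of all 12626 genes were called for genotype (5.09% higher and 4.77% lower) and 26.7% for line (13.2% higher and 13.5% lower). Among 17 tested regulators of NRF2, 2 were higher and 1 lower in GCN5-/- arrays, with a median effect of -0.03 against 0.01 over all genes. The higher genes were the small MAF partners of NRF2, Mafk by 0.51 ± 0.08 (SE; limma adjusted p = 0.0113; pairs 0.49, 0.42 and 0.61) and Maff by 0.46 ± 0.09 (limma adjusted p = 0.0230; pairs 0.32, 0.40 and 0.65). The lower gene was Gsk3b, a kinase that can mark NRF2 for destruction, with -0.38 ± 0.08 (limma adjusted p = 0.0236); its other probe sets ran from -0.58 to 0.09. Nfe2l2 itself gave 0.20 ± 0.07 (limma adjusted p = 0.118), Keap1 -0.02 (limma adjusted p = 0.921) and Bach1 -0.30 ± 0.11 (limma adjusted p = 0.132). The Bach1 pairs differed by -0.41, -0.48 and 0.00, and without GCN5+/- B or GCN5-/- B its effect was -0.45 and passed (limma adjusted p = 0.0282 and 0.0275). For line, 1 regulator was higher and 4 were lower in line B, led by Bach2 (-1.46), Maff (-0.64) and Bach1 (-0.55; limma adjusted p = 0.0101).

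Of 27 tested further NRF2 targets, 3 were higher and none lower in GCN5-/- arrays, with a median of 0.08. They were the aldo-keto reductase Akr1b8 by 0.43 ± 0.06 (SE; limma adjusted p = 0.00484) and the export pumps Abcc4 by 0.80 ± 0.13 (limma adjusted p = 0.0110) and Abcc3 by 0.38 ± 0.09 (limma adjusted p = 0.0459). The share called, 3 of 27, is close to the 9.86% over all genes. For line, 5 were higher and 8 lower in line B: Mgst1, a membrane glutathione transferase, differed by -4.84 ± 0.15 (limma adjusted p = 8.74e-07), Aldh1a1 by -2.53 and Gstm2 by -1.28.

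In the glutathione pathway, 4 of 21 tested genes were higher and 1 lower, with a median of -0.03. Ggct, which cleaves gamma-glutamyl dipeptides, gave 1.02 ± 0.11 (SE; limma adjusted p = 0.00197; pairs 0.92, 0.84 and 1.31), although its other probe set gave 0.25 (limma adjusted p = 0.169). The peroxidase Gpx1 rose by 0.24 ± 0.04 (limma adjusted p = 0.0141). The transferase Gsto1 gave 0.46 ± 0.11 (limma adjusted p = 0.0424), a call lost with the replicate block (limma adjusted p = 0.0590). Its line A pairs differed by 0.62 and 0.70 and the line B pair by 0.05. The Gsto1 interaction of -0.61 ± 0.09 was not called (limma adjusted p = 0.0941). At its other probe set the effect was 0.46 (limma adjusted p = 0.0213), with pairs of 0.63, 0.55 and 0.19. Gss, glutathione synthetase, named after its value was seen, rose by 0.40 ± 0.10 (limma adjusted p = 0.0437), and Gpx7 fell by 0.38 ± 0.08 (limma adjusted p = 0.0323). Between lines, Gstt1 (-1.94) and Gstk1 (-0.89) were lower and Oplah (0.86) higher in line B, among 3 higher and 6 lower genes. The line difference of Gstt1 was -2.67 within GCN5+/- and -1.21 within GCN5-/- arrays. Its genotype pairs differed by -1.45, -1.46 and 0.01, and the effect of -0.97 ± 0.26 was not called (limma adjusted p = 0.0598); it passed at the stricter level filter (0.0433) and, at -1.46, without GCN5+/- B or GCN5-/- B (0.000586 and 0.000574).

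Among 15 tested thioredoxin and peroxiredoxin genes, the mitochondrial thioredoxin Txn2 rose by 0.45 ± 0.07 (SE; limma adjusted p = 0.00820) and the secretory-pathway peroxiredoxin Prdx4 fell by 0.27 ± 0.05 (limma adjusted p = 0.0151); the other 13 were not called. Some peroxiredoxins, but not all, are substrates of sulfiredoxin. Prdx1 and Prdx6 had no probe set annotated to them alone and were not analysed here. Line B was higher at Txndc17 (0.58), Msra (0.47) and Prdx2 (0.29) and lower at none. Of 8 tested genes for superoxide, catalase and NADPH oxidase, the extracellular dismutase Sod3 rose by 0.84 ± 0.10 (limma adjusted p = 0.00304), was lower in line B by a log2 difference of -0.90 ± 0.11 (limma adjusted p = 0.000751), and was the only one called for genotype; the median was 0.25. Nox4 (-0.54) and Cyba (-0.40) were among the 5 lower in line B.

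Genes of metal handling bear on the metallothioneins. Of 15 tested, 1 was higher in GCN5-/- arrays, the transferrin receptor Tfrc, by 0.65 ± 0.09 (SE; limma adjusted p = 0.00648). Mtf1, which drives Mt1 and Mt2, gave 0.18 ± 0.10 for genotype (limma adjusted p = 0.303) and -0.04 for line. Its other tested probe sets gave 0.41 ± 0.11 at 1428979_at, with pairs of 0.30, 0.39 and 0.55 and no overlap of genotypes (limma adjusted p = 0.0591), and 0.08 at 1429170_a_at (limma adjusted p = 0.659). Probe sets 1440414_at and 1452990_at of Mtf1 were below the filter on low signal and were not tested. The zinc exporter Slc30a1, another MTF1 target, had a line difference of -1.61 ± 0.19 (limma adjusted p = 0.000672), the same size as that of Mt2, but its other probe set gave -0.51 (limma adjusted p = 0.0725). For genotype Slc30a1 gave 0.40 (limma adjusted p = 0.210; 0.0461 with the replicate block), and -0.08 at the other probe set. For line, 4 of the 15 were higher and 4 lower in line B. Of the other zinc carriers, Slc30a4 (0.66) and Slc39a10 (0.47) were higher, and Slc39a1 (-0.34; limma adjusted p = 0.0169) and Slc39a6 (-0.35; limma adjusted p = 0.0202), named after their values were seen, were lower. In haem metabolism, 1 of 11 tested genes was higher, Alas1, the first enzyme of haem synthesis, by 0.35 ± 0.08 (limma adjusted p = 0.0420); Blvra (0.43) and Hmox2 (0.31) were higher and Uros (-0.38) lower in line B, the last a call that held in 3 of 12 alternatives (limma adjusted p = 0.286 without GCN5-/- B). Over the 14 alternatives for genotype, the call held in 13 for Ggct, in 12 for Abcc4, Sod3, Tfrc and Txn2, in 11 for Akr1b8, in 10 for Mafk and in 9 for Gpx1. For Abcc3, Alas1, Gpx7, Gsk3b, Gss, Gsto1, Maff and Prdx4 it held in 3 to 8, and each of these was lost on leaving out at least 1 line A array. The same was true of Abcc4 (without GCN5-/- A2), Mafk (without GCN5+/- A1) and Gpx1 (without GCN5+/- A1 or GCN5-/- A1). For line, the calls of Hmox2, Msra, Slc39a10, Bach1, Nox4 and Blvra were lost without GCN5+/- B (limma adjusted p = 0.219, 0.242, 0.218, 0.116, 0.134 and 0.0667), and those of Prdx2 and Cyba without GCN5-/- B (0.0797 and 0.0796). Hmox2 was also lost without GCN5+/- A1 or A2, and Msra and Slc39a10 without GCN5+/- A1.

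The genes whose values over the 6 arrays were most like each called member were found by Pearson correlation among 6062 genes; arrays of a line share its level, so high values are common. For Srxn1 (1451680_at) they were Mcm3 (0.9954), Wdr76 (0.9904) and Dtd1 (0.9902), and 105 genes exceeded 0.95. For Gsr (1421816_at) they were Tmem161a (0.9990), Dhps (0.9974) and Elac2 (0.9971), of 419. For Mt1 (1422557_s_at) they were P3h3 (0.9995), Sulf2 (0.9990) and Plekhf1 (0.9985), of 452.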

How the data were processed

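The authors deposited 1 log2 signal for each probe set and array; that scale was inferred from the values, 3.13 to 15.2. MAS5 was named for all samples and Partek for 1, per the submitters' processing notes, with no role, order or version; for normalization and background correction the method is not given in the sources used here. Values scaled between arrays hide any change shared by most genes. Of 45101 probe sets, 64 controls were left out; 34945 of the rest had 1 symbol, 932 several and 9160 none here, and 34741 Entrez identifiers matched the RefSeq table of GRCm38.p6, used for names only.

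Probe sets with a mean log2 signal at or above the 40th percentile (6.80) were tested in R 4.3.3 with limma 3.58.1 (lmFit, eBayes with a trend), with genotype and cell line as terms over 6 arrays and Benjamini-Hochberg adjustment over 27022 probe sets; the scripts were tested on simulated data. The residual degrees of freedom were 3 (2 with the product term). Alternatives covered the filter, quantile normalization, the line term, the line A duplicates, the variance prior, the replicate block and each array left out. Leaving out either line B array gives the same genotype effect, set by line A alone. Those alternatives are counted in the tallies for genotype but are not separate checks. Precision is limited by how few arrays there are.

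The replicate names pair the arrays at least by line. Deviations from group means, which hold the line difference, correlated at 0.637 (A1), 0.657 (A2) and 0.804 (B). Crossing A1 with A2, all within line A, gave 0.348 and 0.43. The names may thus pair RNAs within line A too, which the labels do not state. The main fit had a term for line and none for pair, and the replicate block was the alternative with such a term. No 2 arrays were copies (38 to 62 identical values).

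Members and lists were chosen with earlier results of these data known. Named were every member probe set, per other list up to 4 genes called for genotype (smallest p) and up to 3 for line (largest difference), Nfe2l2, Keap1, Bach1, Mtf1 and Kat2a, and the 3 most similar genes per called member. Motif matches were counted by exact letters.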

Additional observations from a re-analysis of the deposited data

How the results depend on the processing

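With 6 arrays, 2 lines and line A duplicates that may be technical repeats, counts of calls depended on how line and duplicates entered the fit. Over all probe sets the 2299 genotype calls became 709 with averaged line A duplicates, 69 without a line term, 532 with line as a random block and 645 to 2309 with 1 array left out; the 6 member calls became 0, 0 and 0 (12, 3 and 5 at an unadjusted limma p under 0.05) and 0 to 6. The replicate block gave 2627 calls in all and 7 of members, adding Slc7a11 at 1443536_at; among members it changed no other call. The 6246 line calls became 3023 without a genotype term and 3025 to 5379 with 1 array left out. The 13 interaction calls became 27 without a level filter, 4 at the 60th percentile, 4 after quantile normalization, 0 without a variance trend and 55 to 104 with 1 line A array left out. Of 277 values of single member probe sets for genotype, 43 lost their call, 3 gained one and none reversed a call; for line, 5 of 237 lost it and 3 gained one. Leaving out a line B array left 2292 or 2309 genotype calls over all probe sets, and leaving out a line A array left 645 to 1161. Without a line B array, line A alone sets the genotype effect, so 2292 and 2309 rest on its duplicate RNAs. Averaging and leaving out arrays leave fewer values in the fit, but the cause of these shifts was not tested.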
